A study of Mus musculus with 12 samples.

Results

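The genes described here encode antiviral effectors and restriction factors, namely Rsad2, Cmpk2, Samhd1, Nt5c3, Isg20, Apobec3, Bst2, Mx1 and Mx2. They were chosen by gene symbol, as 9 of the 22561 genes in the count table, and all 9 passed the filter on low counts and were among the 9431 genes tested. Their RNA was measured in follicular (FO) B cells, the recirculating B cells of the follicles, which were sorted from the spleens of 10-week-old C57BL6 mice by FACS with surface markers that included B220, AA4.1, CD23 and CD21 (AA4.1-, CD23+, CD21mid). The 12 samples fell into 4 groups of 3. The first group was unstimulated, and the others received IFNα (a type I interferon), CpG (the oligonucleotide ODN1826, an agonist of the DNA sensor TLR9) or CpG + IFNα for 12 h. The groups did not differ in genotype or strain. The sources used here do not say if unstimulated cells spent any time in culture, so a shift caused by culture cannot be told apart from a stimulus in any comparison with them. They also do not say whether the 3 samples of a group came from separate mice or cultures, and p-values then measure only the spread between these samples.

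Type I interferons bind a receptor on almost every cell and switch on, through factors that include STAT2 and IRF9, a large set of interferon-stimulated genes (ISGs) that act against viruses. The products of these 9 genes have different biochemical activities. Viperin (Rsad2) turns CTP into a chain terminator of viral RNA synthesis, and CMPK2 is a mitochondrial kinase that phosphorylates UMP and CMP. SAMHD1 cleaves the dNTPs needed for reverse transcription, and NT5C3 is a nucleotidase that removes the phosphate of CMP and UMP. ISG20 is an exonuclease, APOBEC3 deaminates cytidines in retroviral DNA, tetherin (Bst2) holds budding virions on the cell surface, and Mx1 and Mx2 encode dynamin-like GTPases. C57BL/6 and most laboratory strains carry defective alleles of the Mx genes, and the biotype column of the deposited table calls both polymorphic pseudogenes, while GENCODE M21 calls Mx1 protein-coding.

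In the GENCODE M21 annotation of GRCm38, Rsad2 (chr12:26442746-26456452, minus strand) and Cmpk2 (chr12:26469204-26479837, plus strand) lie head to head, with 12751 bases and 0 annotated genes between them. Mx1 (chr16:97447035-97462907, minus strand) and Mx2 (chr16:97535308-97560900, plus strand) are also divergent, 72400 bases apart with 4 genes between them. The other members are single genes, with Bst2 at chr8:71534255-71537456 (minus strand), Samhd1 at chr2:157097533-157135265 (minus strand), Isg20 at chr7:78913424-78920396 (plus strand), Apobec3 at chr15:79891659-79915906 (plus strand) and Nt5c3 at chr6:56882400-56923932 (minus strand). Apobec3 shares 100 exonic bases with Cbx7 on the opposite strand and 676 with D730005E14Rik on its own strand, genes with 1100 and 412 counts over the 12 samples. The strand setting of the counting is not given in the sources used here, so the counts of Apobec3 could hold reads of these genes. Of the 50-base stretches in the last 500 bases of a member, 5.01% of those of Apobec3 also occur in D730005E14Rik, 3.58% of those of Samhd1 occur in other genes, 1.6% of those of Mx1 occur in Mx2, and 0 of the other members do.

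RefSeq promoter windows, which span 250 bases before a start site to 50 after it on GRCm38.p6, were present for 7 of the 9 members (10 windows) and not for Mx1 and Mx2. They were searched on both strands for the letters of an interferon-stimulated response element (ISRE: GAAA, any 2 bases, GAAA), of a gamma-activated sequence (GAS: TTC, any 3 bases, GAA) and of a κB element (GGG, any 3 bases, TTCC). The ISRE letters stood in the windows of Rsad2, Bst2 and Apobec3, against 4.05% of the 7234 tested genes with a window and 3.44% of all 32851 windows. The GAS letters stood in those of Bst2, Samhd1 and Isg20 (8.31% of tested genes, 8.3% of all windows), and the κB letters in those of Bst2, Isg20 and Nt5c3 (7.42% of tested genes, 5.56% of all windows). Cmpk2 had none of the 3. These stretches are printed because they hold the matches of each member, with matched letters in capitals, 15 flanking bases where the window has them, the strand of the gene, and positions counted from the start site as 0.
Rsad2, ISRE at -120 to -111, chr12:26456548-26456587, minus strand: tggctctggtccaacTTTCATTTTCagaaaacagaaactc
Bst2, κB, GAS and 2 ISRE matches at -142 to -115, chr8:71537572-71537629, minus strand: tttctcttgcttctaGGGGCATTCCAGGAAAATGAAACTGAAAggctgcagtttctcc
Samhd1, GAS at -235 to -227, chr2:157135308-157135346, minus strand: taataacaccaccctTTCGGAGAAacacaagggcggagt
Isg20, GAS at -73 to -65, chr7:78913336-78913374, plus strand: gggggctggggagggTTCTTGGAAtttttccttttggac
Isg20, κB before another start site at -109 to -100, chr7:78913641-78913680, plus strand: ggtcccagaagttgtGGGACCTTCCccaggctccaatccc
Apobec3, ISRE at -140 to -131, chr15:79892253-79892292, plus strand: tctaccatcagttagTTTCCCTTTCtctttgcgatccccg
Nt5c3, κB at -54 to -45, chr6:56901916-56901955, minus strand: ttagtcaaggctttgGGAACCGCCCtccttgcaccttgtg
In Bst2 the 4 matches lay within 28 bases and each overlapped the next, whereas no window of another member held more than 1 match. A match is a run of letters and not a shown binding site.

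**Figure D1:**
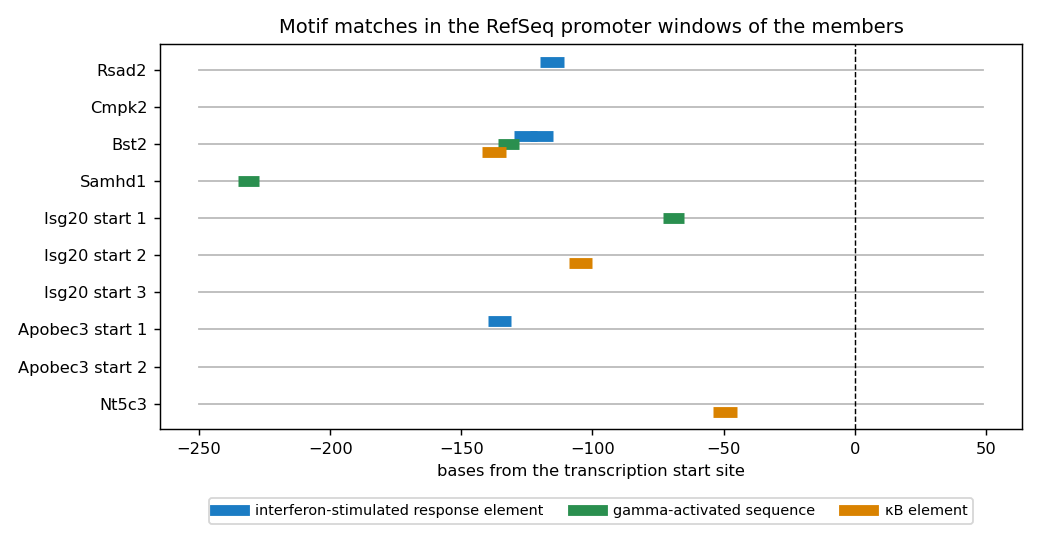
Positions of motif matches in the 10 RefSeq promoter windows of the 7 members that have one, with bases from the transcription start site on the x axis, 1 grey line per window, and colors for the 3 motifs. The matches of Bst2 lie together between -142 and -115, and the windows of Cmpk2, the third start of Isg20 and the second start of Apobec3 hold none.

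Counts were unique molecular identifiers (UMIs) from the 3′ ends of polyadenylated RNA, with totals of 922450 to 2923865 per sample. Levels are given as CPM, which are counts relative to the library size after scaling with TMM factors, and a gene was called a differentially expressed gene (DEG) when its adjusted p was under 0.1 and its log2 fold change over 1 in size. All 10 defining FO B cell markers were detected in every group, with a summed level of 18340 to 20940 CPM without a stimulus, 17360 to 19450 with IFNα, 6577 to 6829 with CpG and 5874 to 5982 with CpG + IFNα. Of these, Fcer2a, which encodes the sort marker CD23, had means of 1227 CPM without a stimulus and 244 with IFNα, and Cr2, which encodes CD21, had 413 and 81.5. Of 6 plasmacytoid dendritic cell markers, a cell type that also expresses Bst2, Siglech and Klk1 were at 0 in all groups, and the sum was 278 to 341 CPM without a stimulus, 462 to 489 with IFNα, 162 to 173 with CpG and 163 to 245 with CpG + IFNα. Most of it was Tcf4, with means of 276 CPM without a stimulus and 434 with IFNα. The 7 measured myeloid markers summed to 16.8 to 42.8 CPM without a stimulus, 594 to 788 with IFNα, 2.85 to 7.98 with CpG and 14.8 to 33.4 with CpG + IFNα. With IFNα this sum was mostly Ly6c2 (mean 656 CPM), while Lyz2, Csf1r, Itgam, Cd14 and S100a8 were at 0. The 5 marginal zone B cell markers summed to 475 to 617 CPM without a stimulus, 2232 to 2368 with IFNα, 95.5 to 98.9 with CpG and 294 to 337 with CpG + IFNα. Plac8 alone went from a mean of 360 CPM without a stimulus to 2189 with IFNα, while the means of the other 4 were lower with IFNα. T cell markers summed to at most 51.9 CPM and NK cell markers to at most 5.35 in any sample, with Cd3g and Cd8a, and Gzma, at 0 in all 12. Erythroid markers ranged from 4.99 to 345 CPM and plasma cell markers from 181 to 380. The part of these markers in the results was not tested, and in such bulk RNA fewer cells of a type and less RNA per cell cannot be told apart.

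With IFNα alone, 8 of the 9 members were up-regulated DEGs and 0 were down-regulated, where 4.56% of all tested genes were up and 4.07% down. With CpG alone the picture turned, with 6 members down-regulated and 0 up-regulated, against 25.5% of all tested genes down and 20.1% up. When IFNα was added to CpG, 8 members again rose against CpG alone and 0 fell, against 2.95% of tested genes up and 2.01% down. The median log2 fold change of the 9 members was 3.83 for IFNα against unstimulated cells, -1.87 for CpG against unstimulated cells and 4.61 for CpG + IFNα against CpG, where the medians over all tested genes were -0.0012, -0.028 and -0.038. Apobec3 was the member that missed the call in both IFNα comparisons, and Bst2, Nt5c3 and Apobec3 were those that missed it with CpG.

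**Figure D2:**
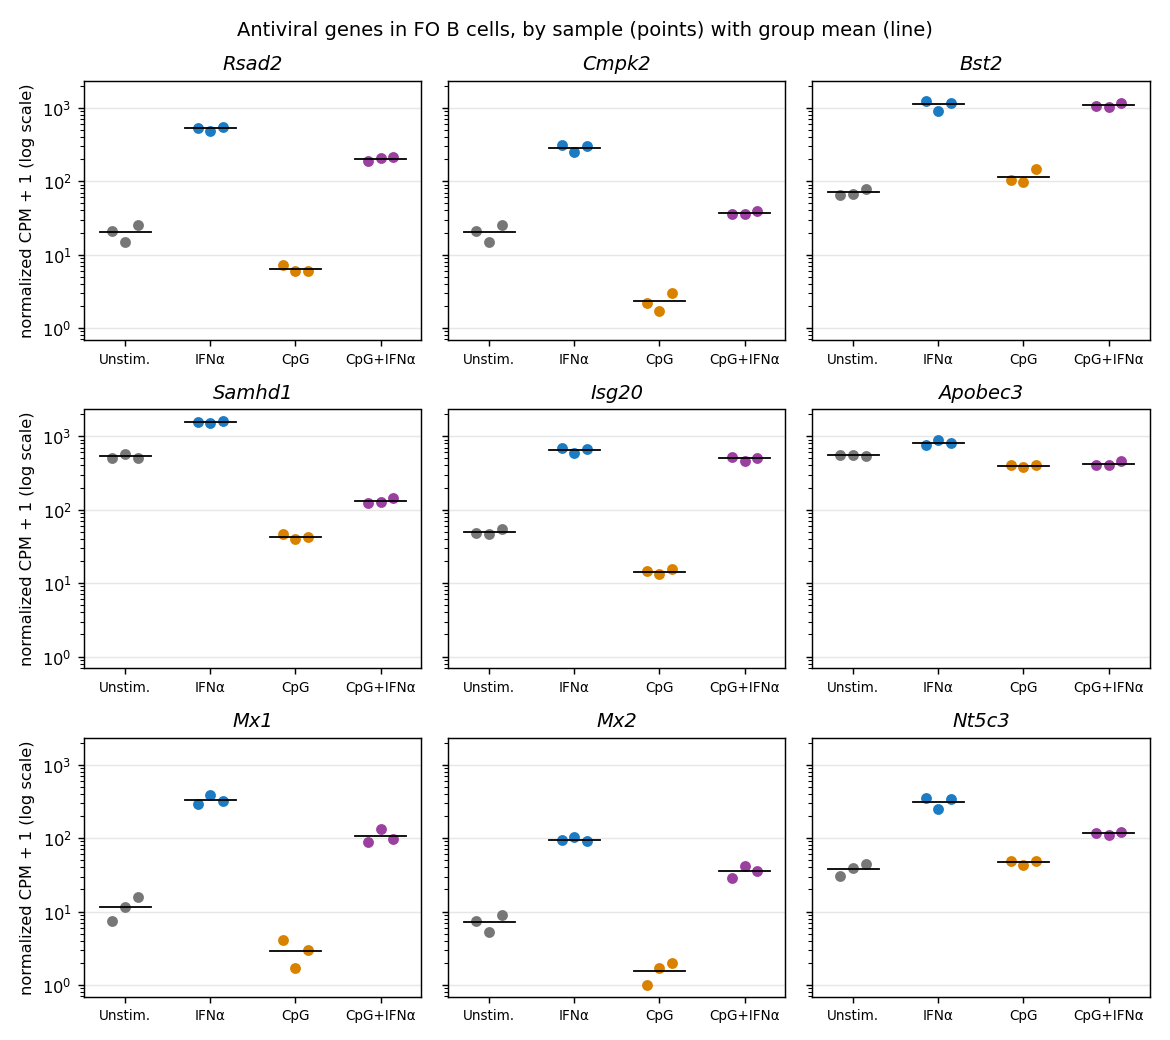
Normalized CPM + 1 (y axis, log scale) of the 9 members in the 3 samples of each group, with the group mean as a line. Every member is highest on average with IFNα, from a mean of 94.3 CPM for Mx2 to 1549 for Samhd1, and Mx2 with CpG lies at 0 to 0.998 CPM.

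Among the enzymes of nucleotides, Rsad2 stood at 20.02, 13.9 and 24.7 CPM in the unstimulated samples and at 531, 486 and 548 CPM with IFNα. CpG samples had 6.14, 4.99 and 4.99 CPM, and CpG + IFNα samples had 187, 204 and 215. No pair of groups overlapped, and the order was IFNα, CpG + IFNα, unstimulated, CpG. Rsad2 rose with IFNα by 4.71 ± 0.158 (log2 fold change ± SE, adjusted p = 9.32e-22) and fell with CpG (-1.87 ± 0.297, adjusted p = 1.5e-06). Added to CpG, IFNα raised it by 5.21 ± 0.189 (adjusted p = 6.6e-21), and the level with both stimuli was 38.7% of that with IFNα alone.

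Cmpk2, the head-to-head neighbor of Rsad2, had 20.02, 13.9 and 24.7 CPM in unstimulated cells, the same counts as Rsad2, and 309, 249.3 and 296 CPM with IFNα. CpG left 1.23, 0.713 and 1.997 CPM, from 2, 1 and 4 counts, and CpG + IFNα samples had 34.4, 34.8 and 38.0 CPM. The 4 groups were again separate and in the same order as for Rsad2. IFNα raised Cmpk2 by 3.83 ± 0.169 (adjusted p = 6.27e-19) and CpG lowered it (-3.76 ± 0.405, adjusted p = 7.71e-10). With both stimuli Cmpk2 reached 12.6% of its IFNα level, and its log2 fold change against unstimulated cells was 0.84 ± 0.207 (adjusted p = 0.000556), under the limit for a DEG. Against CpG alone it rose by 4.61 ± 0.324 (adjusted p = 2.7e-13). The ratio of the counts after scaling was 25.6, with an interval from 12.3 to 64.5 for counting error only.

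Samhd1 was the member with the lowest share of its IFNα level left when CpG was added, 8.44%. It had 503, 580 and 504 CPM without a stimulus and 1552, 1501 and 1594 with IFNα. CpG samples had 45.4, 39.2 and 40.9 CPM, and CpG + IFNα samples had 122, 127 and 143. All groups were separate, and cells with both stimuli lay below unstimulated cells. The rise with IFNα was 1.55 ± 0.106 (adjusted p = 8.78e-14), and the fall with CpG was -3.65 ± 0.132 (adjusted p = 1.84e-21). IFNα added to CpG raised Samhd1 by 1.64 ± 0.136 (adjusted p = 1.77e-11), but it stayed lower than in unstimulated cells (-2.02 ± 0.114, adjusted p = 9.48e-17). Samhd1 was the 1 member down-regulated by both stimuli together.

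Nt5c3 stood at 29.1, 38.5 and 43.2 CPM in unstimulated cells and at 348, 246 and 345 CPM with IFNα. It had 47.9, 42.1 and 48.4 CPM with CpG, which overlapped the unstimulated samples, and 116, 111 and 121 with CpG + IFNα. IFNα raised it by 3.07 ± 0.16 (adjusted p = 5.74e-17), and the difference between CpG and unstimulated cells was 0.33 with a 95% interval from -0.066 to 0.72 (adjusted p = 0.129). Added to CpG, IFNα raised Nt5c3 by 1.32 ± 0.148 (adjusted p = 2.09e-08), and the level with both stimuli was 37% of that with IFNα.

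Isg20, the exonuclease, had 46.4, 44.9 and 53.8 CPM in unstimulated cells and 692, 595 and 662 with IFNα. It had 13.5, 12.1 and 14.5 CPM with CpG and 526, 461 and 509 with CpG + IFNα. The 4 groups did not overlap, and both groups with IFNα lay far above both groups without it. IFNα raised Isg20 by 3.74 ± 0.135 (adjusted p = 3.95e-21) in the absence of CpG and by 5.20 ± 0.152 (adjusted p = 7.49e-23) in its presence. CpG alone lowered it (-1.84 ± 0.201, adjusted p = 9.67e-10). Against IFNα alone, both stimuli gave -0.38 ± 0.102 (adjusted p = 0.00137), under the limit for a DEG, and 76.7% of the level.

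Apobec3, the cytidine deaminase, had the smallest fold change of the 9 with IFNα. Its levels were 551, 557 and 529 CPM without a stimulus, 767, 877 and 798 with IFNα, 402, 384 and 398 with CpG and 402, 404 and 460 with CpG + IFNα. IFNα samples were above all others, and the lowest CpG + IFNα sample was only just above the highest CpG sample. The log2 fold change was 0.58 ± 0.104 with IFNα (adjusted p = 6.84e-05) and -0.47 ± 0.106 with CpG (adjusted p = 0.000232), both past the p threshold and under the fold limit. Between CpG + IFNα and CpG it was 0.10 with an interval from -0.12 to 0.31 (adjusted p = 0.646).

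Bst2, the gene for tetherin, had 64.6, 66.3 and 76.8 CPM in unstimulated cells and 1242, 898 and 1175 with IFNα. The CpG samples stood at 103, 95.5 and 144 CPM, and those with CpG + IFNα at 1054, 1018 and 1169. The 2 groups with IFNα overlapped each other and lay above the other 2, which did not overlap. IFNα raised Bst2 by 3.99 ± 0.159 (adjusted p = 4.71e-20), and by 3.23 ± 0.142 in the presence of CpG (adjusted p = 1.09e-18). CpG alone gave 0.73 ± 0.17 (adjusted p = 0.000322), under the fold limit. Between CpG + IFNα and IFNα the difference was -0.03 with an interval from -0.28 to 0.22 (adjusted p = 0.836), and its sign changed under other settings. Bst2 thus kept 97.8% of its IFNα level, the highest share of the 9.

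Both Mx genes were low in unstimulated cells and near the limit of detection with CpG. Mx1 had 6.37, 10.7 and 15.001 CPM in unstimulated cells, 294, 387 and 315 after IFNα, 3.07, 0.713 and 1.997 after CpG (5, 1 and 4 counts) and 87.3, 134 and 96.1 after both. Mx2 had 6.37, 4.28 and 7.94 CPM in unstimulated cells, 91.8, 101 and 90.0 after IFNα, 0, 0.713 and 0.998 after CpG and 27.3, 40.4 and 34.9 after both. No groups overlapped for either gene, and their order was that of Rsad2. IFNα raised Mx1 by 4.95 ± 0.222 (adjusted p = 9.79e-19) and Mx2 by 3.89 ± 0.253 (adjusted p = 2.33e-14). With CpG, Mx1 fell (-2.39 ± 0.526, adjusted p = 0.000169), and so did Mx2 (adjusted p = 5.23e-05), for which 20 counts in unstimulated cells stood against 3 with CpG, a ratio of 10.6 after scaling with a counting interval from 3.14 to 55.7. Added to CpG, IFNα raised Mx1 by 5.70 ± 0.299 (adjusted p = 1.05e-16). For Mx2 (adjusted p = 2.12e-13) the counts were 235 and 3, a ratio of 59.1 after scaling, with a counting interval from 19.96 to 289.

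**Figure D3:**
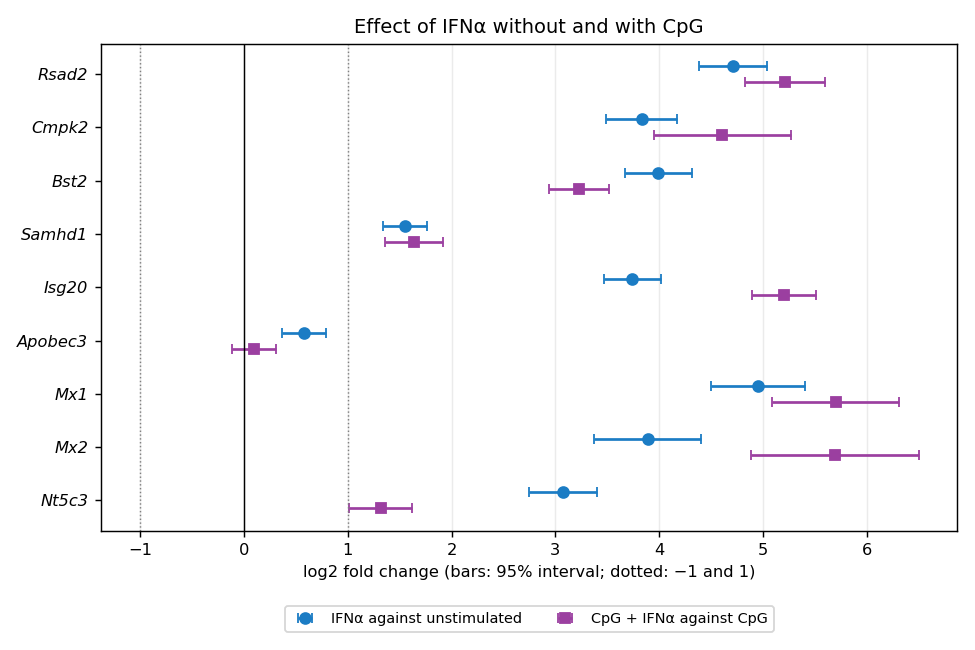
Log2 fold change (x axis) of each member for IFNα against unstimulated cells (blue circles) and for CpG + IFNα against CpG (purple squares), with 95% intervals and dotted lines at -1 and 1. The purple interval lies above the blue one for Isg20 and Mx2 and below it for Bst2, Apobec3 and Nt5c3.

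Whether the effect of IFNα was the same with and without CpG was asked with the interaction, which is the log2 effect of IFNα in the presence of CpG minus that in its absence. It was a DEG-sized difference for 1 member in each direction, where 3.09% of tested genes were up and 3.17% down. The log2 effect on Isg20 was larger with CpG (1.46 ± 0.226, adjusted p = 3.17e-05), and that on Nt5c3 was smaller (-1.75 ± 0.227, adjusted p = 1.83e-06). Without IFNα, the mean of Isg20 was 13.4 CPM with CpG and 48.4 in unstimulated cells. It reached 498 CPM with CpG + IFNα and 649.5 with IFNα, so its level was not higher with CpG. Bst2 (-0.76 ± 0.211, adjusted p = 0.0181) and Apobec3 (-0.48 ± 0.147, adjusted p = 0.0332) also had smaller log2 effects with CpG, within the fold limit. Leaving out a sample gave edgeR adjusted p up to 0.118 for Bst2 and 0.175 for Apobec3, past the threshold. For Samhd1 the interaction was 0.09, with an interval from -0.26 to 0.43 (adjusted p = 0.832). Those of Rsad2 (0.50, from -0.14 to 1.15, adjusted p = 0.364), Cmpk2 (0.78, from -0.21 to 1.76, adjusted p = 0.358) and Mx1 (0.75, from -0.38 to 1.88, adjusted p = 0.457) had wide intervals that included 0. Mx2 gave 1.80 with an interval from 0.38 to 3.22 before adjustment and an adjusted p of 0.106, with 3 counts in all behind its CpG level.

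The effect of CpG was also read in cells that had IFNα. Against IFNα alone, CpG + IFNα left 6 members down-regulated and 0 up-regulated, where 25.5% of tested genes were down and 18.7% up. Cmpk2 (-2.99 ± 0.135, adjusted p = 3.24e-19) and Samhd1 (-3.57 ± 0.115, adjusted p = 7.65e-23) fell most. Rsad2 (-1.37 ± 0.108, adjusted p = 5.02e-13), Mx1 (-1.64 ± 0.139, adjusted p = 2.71e-12), Mx2 (-1.44 ± 0.159, adjusted p = 1.18e-09) and Nt5c3 (-1.43 ± 0.125, adjusted p = 5.61e-12) had smaller falls. Apobec3 stood just inside the fold limit (-0.95 ± 0.103, adjusted p = 8.1e-10), and Isg20 and Bst2 have their values above.

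**Figure D4:**
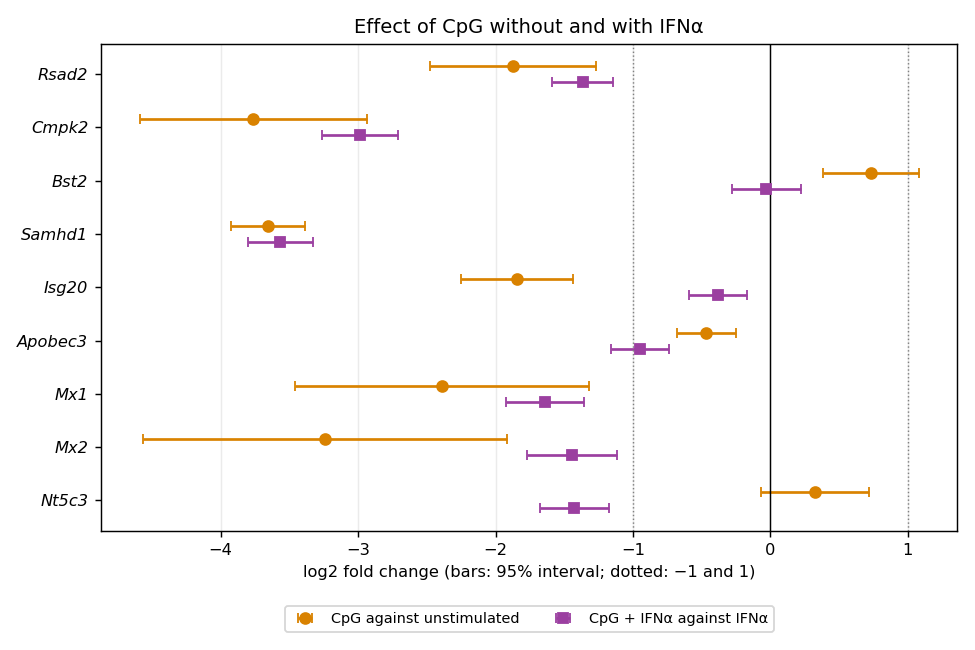
Log2 fold change (x axis) of each member for CpG against unstimulated cells (orange circles) and for CpG + IFNα against IFNα (purple squares), with 95% intervals and dotted lines at -1 and 1. Samhd1 lies near -3.6 in both (-3.65 and -3.57), whereas Nt5c3 moves from 0.33 to -1.43 and Isg20 from -1.84 to -0.38.

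Compared with unstimulated cells, CpG + IFNα gave 6 up-regulated members and 1 down-regulated, where 20.3% of tested genes were up and 25.6% down. The rises were 3.34 ± 0.166 for Rsad2 (adjusted p = 3.24e-18), 3.96 ± 0.158 for Bst2 (adjusted p = 1.12e-20), 3.36 ± 0.134 for Isg20 (adjusted p = 1.21e-20), 3.31 ± 0.245 for Mx1 (adjusted p = 9.2e-14), 2.45 ± 0.283 for Mx2 (adjusted p = 3.18e-09) and 1.64 ± 0.168 for Nt5c3 (adjusted p = 2.19e-10). The fall was that of Samhd1. Between the single stimuli, all 9 members were lower with CpG than with IFNα, against 24.7% of tested genes down and 19.4% up, from -1.05 ± 0.104 for Apobec3 (adjusted p = 1.26e-10) to -7.59 ± 0.239 for Cmpk2 (adjusted p = 1.7e-23). That of Apobec3 was just past the fold limit and came to -0.98 without the second IFNα sample. These comparisons share samples, so their lists of genes are not independent of each other.

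The order of the 4 levels split the members into 3 patterns. Rsad2, Cmpk2, Isg20, Mx1 and Mx2 ran from IFNα through CpG + IFNα and unstimulated cells down to CpG, and each neighboring pair differed past the p threshold. Bst2 and Nt5c3 had unstimulated cells lowest, but the difference of IFNα and CpG + IFNα for Bst2 and that of CpG and unstimulated cells for Nt5c3 did not pass the test. Samhd1 and Apobec3 had unstimulated cells in the second place, and the difference of CpG + IFNα and CpG for Apobec3 did not pass it. As a description over the 12 samples, which share their libraries and groups, Pearson's r of log2 CPM was 0.99 between Rsad2 and Mx1, 0.944 between Samhd1 and Apobec3 and 0.313 between Bst2 and Samhd1.

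By the same measure over 12 samples, the genes most like each member fell into different sets. Trim30a, an interferon-inducible TRIM protein, was among the 3 nearest of Rsad2 (r = 0.995), Isg20 (0.99), Mx1 (0.992) and Mx2 (0.992), and its paralog Trim30d among those of Rsad2 (0.997), Isg20 (0.991) and Mx1 (0.991). The nearest gene was Oas3 for Rsad2 (0.997), Phf11a for Bst2 (0.986), Parp9 for Mx2 (0.993) and Ms4a4c for Nt5c3 (0.993). For Samhd1 it was Sh3bp2 (0.996), before Cyth1 and the cathepsin gene Ctss (both 0.99), and for Apobec3 it was Snx5 (0.979). With Spearman's rho instead, 0 or 1 of the 3 nearest genes of each member remained, so the names within such sets of similar genes are not fixed by 12 samples.

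The 4 other lists of genes place the members among their pathways. Their counts are to be read against the shares over all tested genes, which were 4.56% up and 4.07% down with IFNα, 20.1% up and 25.5% down with CpG, and 2.95% up and 2.01% down when IFNα was added to CpG. Of 37 tested ISGs with antiviral roles, 32 rose with IFNα (median 2.96), 28 fell with CpG (median -2.09) and 30 rose when IFNα was added to CpG (median 3.50), with 0 DEGs in the opposite direction in each. Ifit3, which binds viral RNA in a complex with other IFIT proteins, went from 12.6 ± 5.56 CPM (SD, n = 3) in unstimulated cells to 1376 ± 118 with IFNα, 0.985 ± 1.3 with CpG and 101 ± 13.7 with both. Isg15, a ubiquitin-like modifier, had 17.5 ± 7.95, 603 ± 123, 7.59 ± 1.3 and 545 ± 53.7 CPM in the same groups. The mean of Isg15 with both stimuli lay within 1 SD of its IFNα mean, and that of Ifit3 did not. Trim5 went against its list with IFNα (-0.89), under the fold limit.

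Of 12 genes for the interferon receptor and its signaling, 6 rose and 1 fell with IFNα, 10 fell with CpG, and 7 rose and 0 fell when IFNα was added to CpG. Irf7, a factor that IFNα induces, had 61.4 ± 13 CPM without a stimulus, 1762 ± 190 with IFNα, 12.1 ± 3.48 with CpG and 315 ± 37.1 with both. Stat2, a subunit of the factor that binds the ISRE, had 69.4 ± 13.4, 478 ± 70, 6.19 ± 1.03 and 62.6 ± 5.58 CPM. Its mean with both stimuli lay within 1 SD of that of unstimulated cells. The feedback inhibitor Usp18 rose with IFNα (4.81 ± 0.201, adjusted p = 1.52e-19) and over CpG (5.13 ± 0.208, adjusted p = 1.33e-19). Socs3 fell with IFNα (-3.86 ± 0.467, adjusted p = 6.53e-08) and also with CpG (-2.65 ± 0.374, adjusted p = 1.88e-07). When IFNα was added to CpG, the change of Socs3 was -0.81 (adjusted p = 0.371). The largest fall of the list with CpG was that of Irf1 (-4.91 ± 0.274, adjusted p = 1.04e-16), a factor that binds promoters of ISGs. Of the receptor genes, which are named for their role after their values were seen, Ifnar1 fell with CpG (-1.33 ± 0.225, adjusted p = 4.51e-06) and Ifnar2 had -0.072 (adjusted p = 0.769).

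Rsad2, Cmpk2, Samhd1 and Nt5c3 act on nucleotides, and other genes of pyrimidine and deoxynucleotide metabolism were counted in the same comparisons. Of 28 tested, 1 rose and 1 fell with IFNα, 13 rose and 6 fell with CpG, and 1 rose and 0 fell when IFNα was added to CpG. The counts for IFNα, for IFNα over CpG and for the falls with CpG were near the shares over all tested genes. With CpG those shares were 20.1% up and 25.5% down. Tyms, the enzyme that makes dTMP, went from 3.40 ± 1.16 CPM in unstimulated cells and 4.14 ± 1.9 with IFNα to 74.6 ± 8.93 with CpG and 67.7 ± 4.45 with both. The dCMP deaminase gene Dctd rose with CpG by 4.16 ± 0.305 (adjusted p = 9.32e-14) and Uck2, a kinase of uridine and cytidine, by 3.70 ± 0.181 (adjusted p = 3.89e-18). Tk2, the mitochondrial thymidine kinase, fell with CpG (-2.79 ± 0.217, adjusted p = 4.25e-13). Dck, the deoxycytidine kinase of the salvage pathway, was called in the same direction as most members in all 3 comparisons, with rises of 1.07 ± 0.168 (adjusted p = 9.46e-06) by IFNα and 1.88 ± 0.2 (adjusted p = 6.99e-09) by IFNα over CpG, and a fall with CpG (-1.84 ± 0.221, adjusted p = 7.69e-09).

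Relatives of the members by protein family were the last list. Of 10 tested, 2 were up-regulated DEGs and 0 down-regulated with IFNα, and 1 was up and 2 were down with CpG. When IFNα was added to CpG, 0 were DEGs in either direction. The deaminase gene Apobec1 rose with IFNα (1.16 ± 0.16, adjusted p = 8.24e-07), from 50.9 ± 8.42 to 115 ± 12.5 CPM, where its relative Apobec3 had 0.58. Apobec1 also rose when IFNα was added to CpG (0.94 ± 0.172, adjusted p = 0.00014), under the fold limit. Aen, an exonuclease related to Isg20, rose with IFNα (from 7.26 ± 1.69 to 16.5 ± 6.22 CPM, adjusted p = 0.0202) and with CpG (1.70 ± 0.305, adjusted p = 1.03e-05), while Isg20 fell with CpG. Dnm2, a dynamin related to the Mx proteins, fell with CpG (-1.15 ± 0.14, adjusted p = 9.67e-09) and had 98.6 ± 3.09 CPM with IFNα against 108 ± 8.06 in unstimulated cells.

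**Figure D5:**
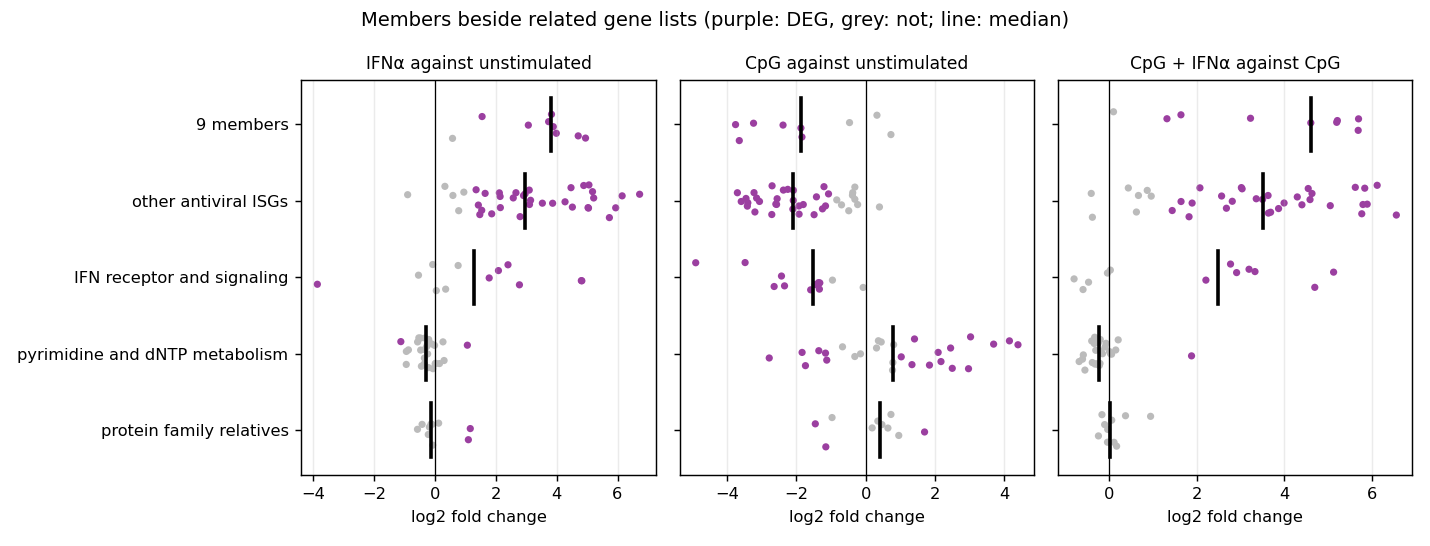
Log2 fold change (x axis) of every tested gene of the 9 members and 4 other lists (rows) in 3 comparisons (panels), with DEGs in purple, other genes in grey and the list's median as a line. The medians of the members and of the other antiviral ISGs lie to the right of 0 with IFNα and to the left with CpG (where Bst2 and Nt5c3 lie to the right). Of the 28 genes of pyrimidine and deoxynucleotide metabolism 13 are up and 6 down with CpG, against 20.1% and 25.5% of all tested genes.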

How the data were processed

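RNA of FO B cells was measured by BRB-seq, a 3′ method with UMIs, in 12 samples. The deposited values are raw UMI counts for each gene, which the authors had not normalized. Per the submitters' processing notes and the paper's methods, they used UMI-tools 1.1.2, Trim Galore 0.6.7, HISAT2 2.2.1 with GRCm38 and featureCounts 2.0.1. UMIs remove PCR duplicates, and 3′ counts do not scale with gene length.

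These counts were scaled with TMM factors, filtered with filterByExpr and tested for 9431 genes with the quasi-likelihood test of edgeR 4.0.16 (R 4.3.3), in a model of all 4 groups that had 8 residual degrees of freedom, with Benjamini-Hochberg adjusted p-values over all of them. The SE is the log2 fold change divided by the root of F. Log2 CPM for correlations used a prior count of 2. Intervals of count ratios are exact binomial at 95% and cover counting error only. Replicates of every group differed by more than counting noise. Samples were treated as unpaired, since the labels do not tie same-numbered samples to a shared animal or batch. Alternatives were DESeq2 1.42.0, other scalings, filters and limits, and leaving out each sample. All members are named, with genes from the 3 nearest to each by Pearson's r (the nearest gene of Cmpk2 is not reported here) and up to 4 DEGs per list and direction by size of change, given as examples. Gene lists and members were chosen with earlier results of these data known.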

Additional observations from a re-analysis of the deposited data

Results flagged for a closer look

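For 4 members the effect of IFNα in the presence of CpG differed from its effect in the absence of CpG by edgeR's test of the interaction. The log2 difference was 1.46 for Isg20 (adjusted p = 3.17e-05), -1.75 for Nt5c3 (adjusted p = 1.83e-06), -0.76 for Bst2 (adjusted p = 0.0181) and -0.48 for Apobec3 (adjusted p = 0.0332). Leaving out each sample in turn moved the interaction of Bst2 between -0.90 and -0.55, with adjusted p up to 0.118, and that of Apobec3 between -0.55 and -0.39, with adjusted p up to 0.175. Since the sources do not give the handling of unstimulated cells, an effect of culture cannot be told apart from a difference in these 4 values.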

How the results depend on the processing

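The counts of member DEGs in 7 comparisons were computed under 12 other settings and 12 fits that each left out a sample. For the interaction, 2 members were up with library size scaling, with DESeq2's size factors in edgeR and with the replicate block, since Mx2 joined Isg20 (adjusted p = 0.0998, 0.0969 and 0.0994), and 0 with a test against a fold change of 2. With a limit of 2 on the log2 fold change, 2 members were down in CpG + IFNα against IFNα, and 0 were up and 0 down in the interaction. With no limit on the fold change, 1 member was up with CpG (Bst2), 2 were down with CpG + IFNα against unstimulated cells (Samhd1 and Apobec3), and 3 were down in the interaction (Nt5c3, Bst2 and Apobec3). Leaving out a sample gave 8 to 9 members down in CpG against IFNα, 6 to 7 up in CpG + IFNα against unstimulated cells (Cmpk2 reached 1.07 without the third unstimulated sample), and 1 to 2 up in the interaction, where Mx2 joined without the second unstimulated, the second IFNα or the first CpG + IFNα sample. The other counts did not move by over 1.5 times. The difference of Bst2 between CpG + IFNα and IFNα changed sign, to 0.0288 with library size scaling, 0.0832 with no filter and 0.0498 with a filter at 1 CPM, and ranged from -0.15 to 0.0800 when a sample was left out. The fall of Apobec3 in CpG against IFNα came to -0.98 with library size scaling and -0.99 with no filter, and to just under 1 in size with a filter at 1 CPM, within the fold limit. Against a fold change of 2, Nt5c3 in CpG + IFNα against CpG (adjusted p = 0.221), Apobec3 in CpG against IFNα (adjusted p = 0.349) and Isg20 in the interaction (adjusted p = 0.369) did not pass. The cause of these changes was not tested. Replicate numbers were shared by the groups, but of 18 same-numbered pairs 5 had a correlation over 0.1 (0 of 36 other pairs), with a range from -0.0651 to 0.205, and 10 of 12 samples were closest to their own number. The replicate block changed no other count of members. Depth limited Mx2, Mx1 and Cmpk2 with CpG, which had 3, 10 and 7 counts in all.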

Other observations

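Rsad2 and Cmpk2 had the same counts in the 3 unstimulated samples, 22, 13 and 28, and no other gene of the table had these 3 counts. In the other 3 groups their counts differed, for example 526, 799 and 718 for Rsad2 and 306, 410 and 388 for Cmpk2 with IFNα. The second IFNα sample had the lowest CPM of its group for 6 members (Rsad2, Cmpk2, Bst2, Samhd1, Isg20 and Nt5c3) and the highest for the other 3 (Mx1, Mx2 and Apobec3). It also had the highest total count of its group, 1689570 UMIs. The second CpG + IFNα sample had the lowest CPM of its group for Bst2, Isg20 and Nt5c3 and the highest for Mx1 and Mx2. For Rsad2, Cmpk2, Samhd1 and Apobec3 it lay in between, and its total of 2923865 UMIs was the highest of its group. These features were chosen after the values were seen.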
